A study of Saccharomyces cerevisiae with 4 samples.

Results

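Glycerol is the solute that budding yeast makes and keeps to balance water loss, and 10 genes of its synthesis, breakdown and transport were followed here through digestion of the cell wall. They were chosen by name from pathway knowledge, but with earlier results of these data known. Synthesis was covered by GPD1, GPD2, GPP1 and GPP2, breakdown by GUT1, GUT2, DAK1 and GCY1, and transport by STL1 and FPS1. The array table held 6172 genes and reading frames in all. Of the 10 glycerol genes, 9 had a value on every array and were tested, among 4730 genes tested, and STL1 had a value on no array.

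The cells were Saccharomyces cerevisiae rlm1 mutants, which lack Rlm1, the factor that carries out transcription for the cell wall integrity kinases, grown in YEPD (rich medium) at 24 °C. Each culture was divided, and 1 part received 5 units per ml of Zymolyase 100T, an enzyme preparation that digests wall glucan, while the other continued untreated. RNA was taken at 3 hours. The 2 cultures were each hybridised on 2 two-colour arrays with the dyes exchanged, so 4 arrays compare zymolyase with untreated, and the untreated cells lack RLM1 too. No wild-type strain was analysed here, so nothing below separates a response of the mutant from a response of yeast in general. RLM1 had a value on 0 of the 4 arrays, and the deletion could not be checked.

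In the cytosol Gpd1 and Gpd2 reduce the glycolytic intermediate dihydroxyacetone phosphate to glycerol-3-phosphate, and Gpp1 and Gpp2 remove its phosphate to release glycerol. Glycerol leaves through the channel Fps1 and is taken up by the proton symporter Stl1. It is broken down by the kinase Gut1 and the mitochondrial dehydrogenase Gut2, or by way of dihydroxyacetone through the reductase Gcy1 and the kinase Dak1. In osmotic stress the kinase Hog1 raises transcription of several of these genes in wild-type yeast.

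All values are log ratios of the channels as the authors deposited them, taken to base 2; the base is not given in the sources used here, and every fold rests on it. The zymolyase sample was labelled with Cy3 on arrays 1 and 3, and with Cy5 on arrays 2 and 4, where the sign of the ratio was therefore turned. Whether the deposited ratios had already been turned is not given there either; this was decided from the genes with the largest ratios, whose signs changed with the dyes. Read as already turned, 0 of the 9 glycerol genes tested pass and GPD1 has a mean log2 ratio of 0.053. Nor is the numerator of the ratio given. It was read as Cy3 over Cy5, which is likely but not settled. This puts 12 of 13 stress genes outside glycerol metabolism on the zymolyase side by their means. These 13 had values on all 4 arrays, and of all 4730 genes tested 2243 lay on that side. HSP12 at 2.75, RTC3 at 2.73 and DDR2 at 2.06 (mean log2 ratios) led the stress genes, and HSP26 at -0.11 was on the other side. Among stress genes with fewer values, CTT1 had log2 ratios of 0.82, 1.15 and 1.43 on arrays 1, 3 and 4. GRE1 had a value on array 3 only, -0.49, also on the other side. The stress genes were chosen with earlier results of these data known, so their count is no independent check of the direction. If the ratio runs the other way, each "rose" below becomes "fell". The arrays held values for 4815 to 5659 features, and array 2 had the fewest. Its log2 ratios also spread most, with an SD over genes of 0.63 where the others had 0.32 to 0.35.

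With arrays 2 and 4 turned, GPD1, GPP1, GPP2 and DAK1 rose with zymolyase, none of the glycerol genes fell, and GPD2, GUT1, GUT2, GCY1 and FPS1 did not pass the test. The 4 increases of 9 genes tested stood against 2.35% of all 4730 genes tested that rose, and 0 decreases against 0.803% that fell. Since the genes were chosen with earlier results known, these counts are no test of the set. A gene was called when its Benjamini-Hochberg adjusted p in limma over the 2 culture means was under 0.05 in both possible assignments of arrays to cultures, and the larger adjusted p is given. Each SD is over the 4 arrays, which hold only 2 cultures. The fit gave every gene the same standard error, 0.16, so a call amounted to a mean of at least 0.51 in size. The deposited ratios of the 4 genes changed sign with the dyes, as did those of the other genes on which the turning rests, so their one sign over the turned arrays is no separate evidence. The median of the mean log2 ratios was 0.32 over the 9 genes and -0.01 over all genes tested.

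**Figure D1:**
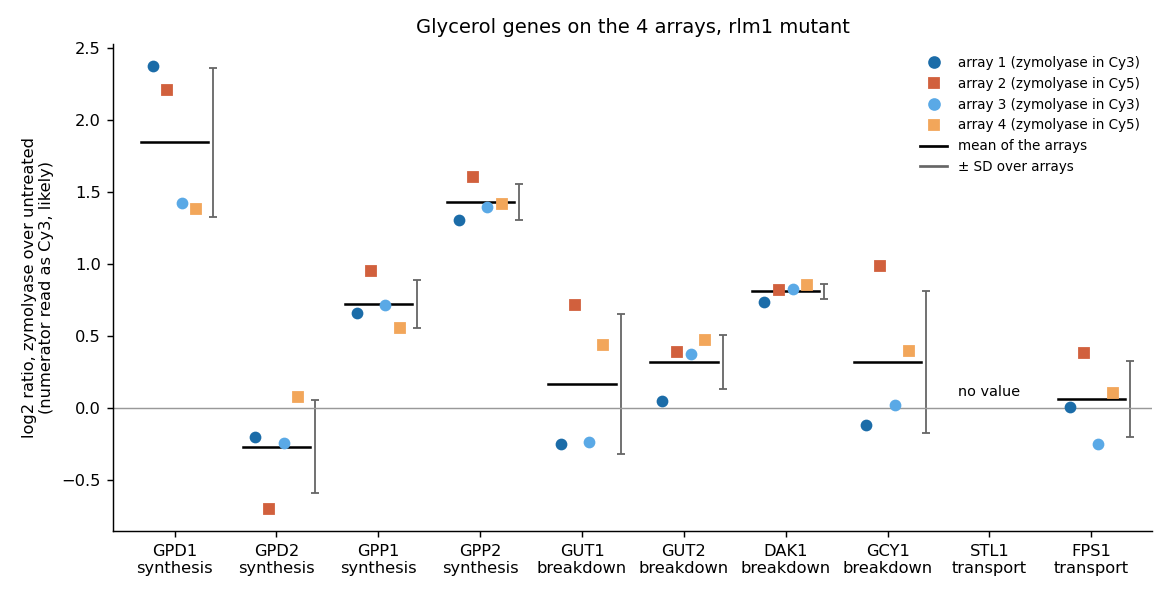
Log2 ratio of zymolyase over untreated (vertical axis, numerator read as Cy3) for each glycerol gene on each of the 4 arrays, with circles for arrays with zymolyase in Cy3 and squares for zymolyase in Cy5. Black lines are means and grey bars ± SD over the 4 arrays; GPD1, GPP1, GPP2 and DAK1 lie above 0.5 on every array, and STL1 has no value.

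Synthesis begins with glycerol-3-phosphate dehydrogenase, and its stress-linked gene GPD1 (YDL022W) had the largest change of the 9. Its log2 ratios were 2.37, 2.20, 1.42 and 1.38 on arrays 1 to 4. Arrays 1 and 2 were the higher and arrays 3 and 4 the lower, and the dye orientations were close, with means of 1.90 (arrays 1 and 3) and 1.79 (arrays 2 and 4). The mean was 1.84 ± 0.52 (SD, n = 4 arrays), or 3.59-fold (limma adjusted p = 1.0e-26). Counted from the highest ratio, GPD1 ranked 6 of 4730 genes by its mean, and between rank 4 and rank 14 on single arrays; with the numerator the other way these ranks count from the lowest, as do those below.

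GPD2 (YOL059W), the paralogue known mainly for redox balance without oxygen, did not follow. Its log2 ratios were -0.21, -0.71, -0.25 and 0.07 on arrays 1 to 4, below 0 on 3 arrays and slightly above it on array 4. The mean of -0.27 ± 0.32 (SD, n = 4 arrays) did not pass the test (limma adjusted p = 0.52), with a 95% interval of the fit from -0.59 to 0.05. That interval excludes an increase of the size seen for GPD1.

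The difference between the paralogues, GPD1 minus GPD2 in log2 ratio, was 2.58, 2.91, 1.67 and 1.31 on arrays 1 to 4. It was above 0 on every array, with a mean of 2.12 ± 0.75 (SD, n = 4 arrays), and the lowest GPD1 value (1.38) was far above the highest GPD2 value (0.07). The shared standard error of the limma fit, with the genes taken as independent, gave a 95% interval from 1.67 to 2.57. That standard error is the same for all genes, so the interval does not hold this difference's own spread between cultures. With arrays paired 1 with 2 and 3 with 4, the culture means were 2.74 and 1.49, both outside it. Paired 1 with 4 and 2 with 3, they were 1.94 and 2.29. An exact sign-flip test over 2 cultures cannot give a p below 0.5, so none is given.

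Glycerol-3-phosphate is dephosphorylated by Gpp1 and Gpp2, and the genes of both phosphatases rose. GPP2 (YER062C), the stress-linked gene, had log2 ratios of 1.31, 1.60, 1.39 and 1.41 on arrays 1 to 4, with a mean of 1.43 ± 0.12 (SD, n = 4 arrays), or 2.69-fold (limma adjusted p = 9.0e-16). GPP1 (YIL053W) had log2 ratios of 0.66, 0.95, 0.71 and 0.55, with a mean of 0.72 ± 0.17 (SD, n = 4 arrays), or 1.64-fold (limma adjusted p = 0.00077). Array 2 gave the highest value of each gene, and the ranges of the genes did not overlap. GPP2 stood between rank 13 and rank 24 of 4730 on single arrays, and GPP1 between rank 113 and rank 211.

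GPP1 rose less than GPP2 on every array. The difference, GPP1 minus GPP2 in log2 ratio, was -0.65, -0.65, -0.68 and -0.86 on arrays 1 to 4, and its mean was -0.71 ± 0.10 (SD, n = 4 arrays) with a 95% interval of the fit from -1.16 to -0.26. The spread of this difference was smaller than that of either gene's own log2 ratio. Gpp1 and Gpp2 are close in sequence, and whether each spot also bound labelled cDNA of the other gene was not tested. In each paralogue pair 1 gene was above the other on all 4 arrays, and in the GPP pair the lesser gene passed the test too.

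**Figure D2:**
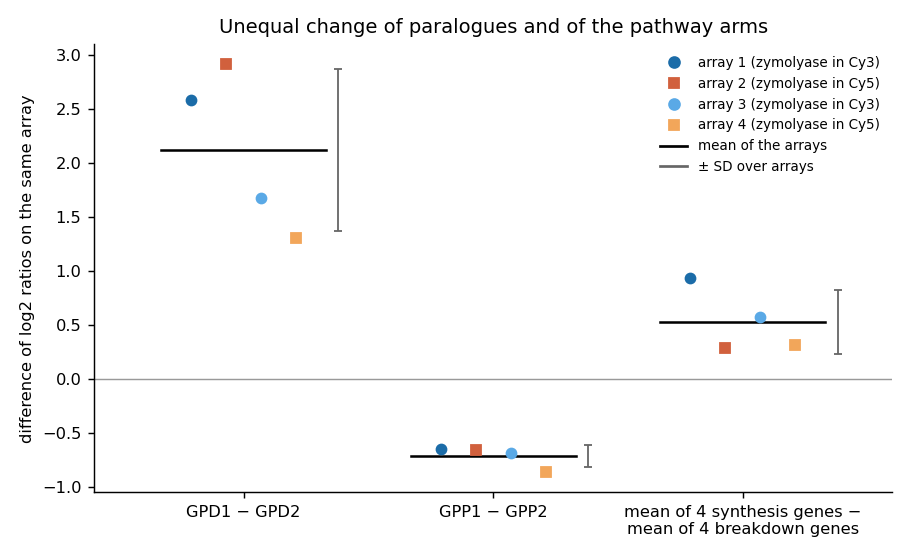
Difference of log2 ratios on the same array (vertical axis) for GPD1 minus GPD2, GPP1 minus GPP2, and the mean of the 4 synthesis genes minus the mean of the 4 breakdown genes; points are arrays, black lines means and grey bars ± SD. The GPD difference lies between 1.31 and 2.91, the GPP difference between -0.86 and -0.65, and the synthesis minus breakdown difference between 0.29 and 0.93.

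Among the breakdown genes DAK1 alone rose. DAK1 (YML070W) encodes dihydroxyacetone kinase, which feeds dihydroxyacetone back to glycolysis and removes a toxic sugar. Its log2 ratios were 0.74, 0.81, 0.83 and 0.85 on arrays 1 to 4. The arrays were nearly equal, and 99.2% of all genes tested had a larger SD over the arrays. The mean was 0.81 ± 0.05 (SD, n = 4 arrays), or 1.75-fold (limma adjusted p = 7.8e-05). DAK1 stood at rank 313 of 4730 on array 2, where ratios spread most, and at ranks 156, 70 and 52 on arrays 1, 3 and 4.

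GCY1 (YOR120W), the aldo-keto reductase that can oxidise glycerol to dihydroxyacetone ahead of Dak1, had log2 ratios of -0.12, 0.98, 0.02 and 0.39 on arrays 1 to 4. The arrays with zymolyase in Cy5 were high (mean 0.69) and those with it in Cy3 near 0 (mean -0.05). The mean of 0.32 ± 0.49 (SD, n = 4 arrays) did not pass the test (limma adjusted p = 0.40). Without array 2 it was 0.10.

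The glycerol kinase gene GUT1 (YHL032C) split by dye as well. Its log2 ratios were -0.25, 0.71, -0.24 and 0.44 on arrays 1 to 4, negative with zymolyase in Cy3 and positive with it in Cy5, so that the orientations did not overlap and had opposite signs. The mean was 0.16 ± 0.49 (SD, n = 4 arrays; limma adjusted p = 0.80), and -0.02 without array 2. The difference between the dye orientations was -0.82 in log2 ratio, and only 10.8% of all genes tested had a larger one in size. For GCY1 it was -0.74, with 14.4% of genes beyond it. In both genes the value moved with the dye orientation; their means hold each orientation equally, so that an equal dye effect cancels in them.

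GUT2 (YIL155C), the mitochondrial glycerol-3-phosphate dehydrogenase gene, had log2 ratios of 0.04, 0.39, 0.37 and 0.47 on arrays 1 to 4. All were above 0, with array 1 the lowest and close to 0. Of all genes tested, 7.99% were positive on every array. The mean of 0.32 ± 0.19 (SD, n = 4 arrays) did not pass the test (limma adjusted p = 0.40), with a 95% interval from -0.0005 to 0.63, so an increase of up to that size is not excluded.

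**Figure D3:**
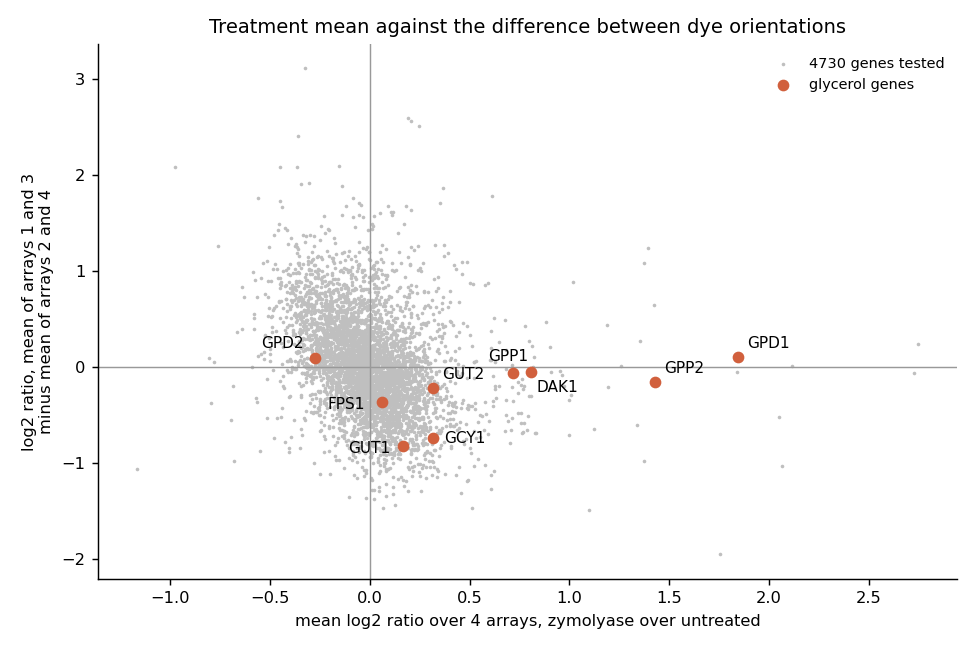
Each of the 4730 genes tested by its mean log2 ratio over the 4 arrays (horizontal axis) and by the mean of arrays 1 and 3 minus the mean of arrays 2 and 4 (vertical axis, log2). GPD1, GPP2, DAK1 and GPP1 lie to the right and near 0 vertically, between -0.16 and 0.11, whereas GUT1 and GCY1 lie at -0.82 and -0.74.

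Synthesis and breakdown were set against each other on each array. The mean log2 ratio of the 4 synthesis genes was 1.03, 1.01, 0.82 and 0.85 on arrays 1 to 4, and that of the 4 breakdown genes 0.10, 0.73, 0.24 and 0.54. The synthesis mean moved little between arrays, and the breakdown mean was higher with zymolyase in Cy5, as GUT1 and GCY1 were. Synthesis minus breakdown was 0.93, 0.29, 0.58 and 0.32, above 0 on every array, with a mean of 0.53 ± 0.30 (SD, n = 4 arrays) and no test, since it is a score over chosen genes. It depended on GPD1, without which the difference had a mean of 0.22 and was -0.11 on array 2. Without DAK1 among the breakdown genes it was 0.66. Of the synthesis genes 3 of 4 rose and of the breakdown genes 1 of 4.

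Of the transport genes only the channel gene FPS1 (YLL043W) was measured. Its log2 ratios were 0.01, 0.38, -0.25 and 0.10 on arrays 1 to 4, on either side of 0 and lower with zymolyase in Cy3. The mean was 0.06 ± 0.26 (SD, n = 4 arrays; limma adjusted p = 0.97), with a 95% interval from -0.26 to 0.38, and -0.05 without array 2. STL1 (YDR536W), the glycerol importer, has no value and so neither a change nor its absence was measured; why a value is blank is not given in the sources used here, and 457 genes have none.

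The calls rested on different margins. With each array left out in turn the culture it came from is left with 1 array, which is assumed to vary like a mean of 2, and dye effects no longer cancel. GPD1 passed in all 4 such fits (limma adjusted p from 1.1e-05 to 0.047). GPP2 passed in 3 and reached 0.052 without array 4. GPP1 and DAK1 passed in none, with adjusted p of 0.081 to 0.44 and 0.056 to 0.41, although their means moved only between 0.64 and 0.77 and between 0.79 and 0.83. With all 4 arrays counted as independent and a dye term in the limma fit all 4 genes passed, GPD1 at an adjusted p of 0.00024, GPP2 at 0.00017, DAK1 at 0.0074 and GPP1 at 0.017, where 1.44% of all genes tested rose.

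**Figure D4:**
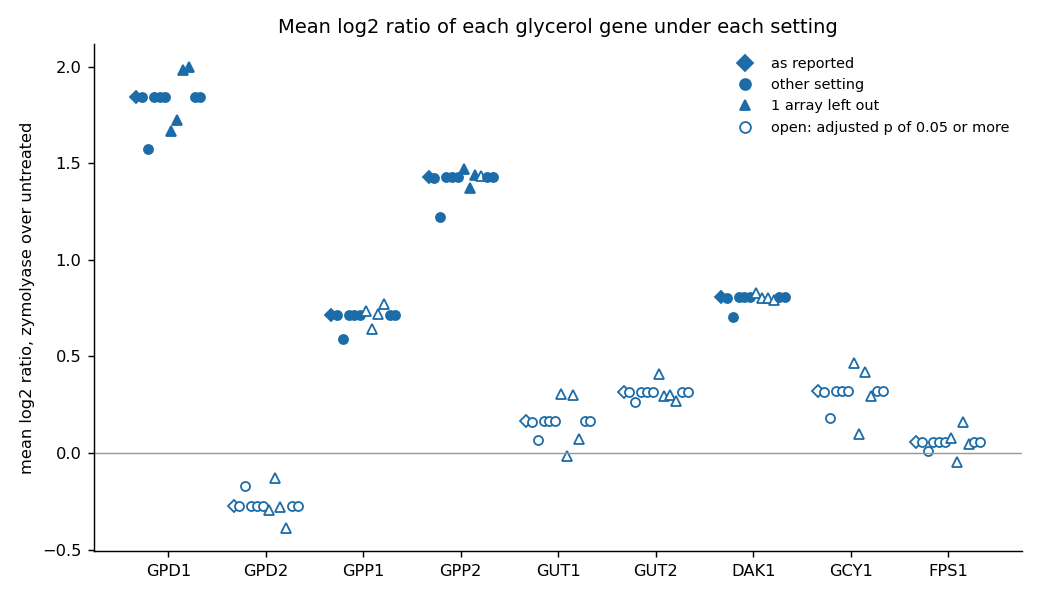
Mean log2 ratio (vertical axis) of the 9 measured glycerol genes as reported (diamond), under other settings (circles) and with 1 array left out (triangles); filled symbols have an adjusted p under 0.05. GPD1 stays filled throughout and runs from 1.57 to 2.00, while GPP1 and DAK1 keep their means but are open when any array is left out; the reading of the ratios as already turned is not drawn.

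The change of GPD1 was shared by a reading frame beside it. YDL023C, numbered next to GPD1 and without an entry in the reference gene table, had log2 ratios of 2.04, 2.25, 1.59 and 1.47 on arrays 1 to 4 (mean 1.84 ± 0.37, SD, n = 4 arrays). Arrays 1 and 2 were again the higher, and the root mean square difference from GPD1 was 0.19. Whether its spot bound GPD1 cDNA was not tested. GPM2, on the other side of GPD1, had values on 3 arrays only, from 0.25 to 0.56, and was not tested. Of 20 features numbered beside a glycerol gene 15 were tested. YDL023C alone was called higher and ARG1, beside GPD2, alone lower, where 2.35% of all genes tested were higher and 0.803% lower. ARG1 had a mean of -0.57 ± 1.10 (SD, n = 4 arrays), but its values of 0.37, 0.34, -1.83 and -1.15 on arrays 1 to 4 differed in sign. Its call rested on the standard error shared by all genes. ARG1 did not pass with a dye term (limma adjusted p = 0.48).

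By root mean square difference over the 4 arrays, the named genes closest to GPD1 among all genes tested were HXT1 at 0.33, NFG1 at 0.45 and PRY2 at 0.55. HXT1 encodes a low-affinity glucose transporter, and its log2 ratios were 2.37, 2.64, 1.87 and 1.59. The closest to GPP2 were ALD3 at 0.28, PRY2 at 0.34 and OCH1 at 0.35. ALD3 encodes an aldehyde dehydrogenase induced by stress and OCH1 the mannosyltransferase that starts the outer chain of wall N-glycans. This likeness was measured over 4 arrays of 1 contrast, and genes with ratios of this size are few.

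Around the core pathway, 1 of 11 measured enzymes, channels and channel regulators rose and none fell, where 2.35% of all genes tested rose and 0.803% fell. The riser was YPR1, a reductase gene related to GCY1. Its log2 ratios were 0.73, 1.17, 0.58 and 0.76 on arrays 1 to 4, all above those of GCY1 on the same array, with a mean of 0.81 ± 0.25 (SD, n = 4 arrays; limma adjusted p = 7.6e-05). This contrast with GCY1 was chosen with the values known. YPR1 did not pass when any 1 array was left out. The aquaporin-family gene AQY3 (0.26 ± 0.38, adjusted p = 0.54 in limma) and GUP1 (-0.24 ± 0.22, adjusted p = 0.62 in limma) had the next largest means. The Fps1 regulators RGC1 (-0.21 ± 0.35) and ASK10 (0.20 ± 0.31) did not pass either (mean log2 ratio ± SD, n = 4 arrays). The median of the 11 means was 0.04, and DAK2, GUP2, AQY1 and GPT2 lacked values on some arrays.

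Of the regulators of glycerol genes 10 had values on all 4 arrays. None of these passed limma's test, with or without a dye term, a count near the 2.35% higher and 0.803% lower of all genes tested. At an unadjusted limma p under 0.05, 3 were higher and 1 lower. With the shared standard error that threshold is a mean beyond 0.32 in size, where the means of all genes tested had an SD of 0.24. The share of all genes past it was not counted, so nothing is read from these regulators' unadjusted counts. The stress transcription factor gene MSN2 came nearest to a call, with log2 ratios of 0.07, 1.08, 0.48 and 0.34 on arrays 1 to 4. Its mean was 0.49 ± 0.43 (SD, n = 4 arrays, limma adjusted p = 0.068). It passed with the arrays paired 1 with 2 and 3 with 4 (limma adjusted p = 0.039). The means of OPI1, a repressor of phospholipid genes, and SMP1, a factor under Hog1, were -0.37 ± 0.49 and 0.37 ± 0.38 in log2 ratio (SD, n = 4 arrays). MSN4, the paralogue of MSN2, lacked array 2 and had log2 ratios of 0.80, 0.76 and 0.25 on arrays 1, 3 and 4; it passed only in the fit that admitted genes with missing values (limma adjusted p = 0.0063). HOG1 had log2 ratios of -0.09, 0.59, -0.09 and 0.02 (adjusted p = 0.92 in limma). The median of the 10 means was 0.11. HOT1, MSN1 and INO2 also lacked a value on array 2, and CAT8 had none.

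**Figure D5:**
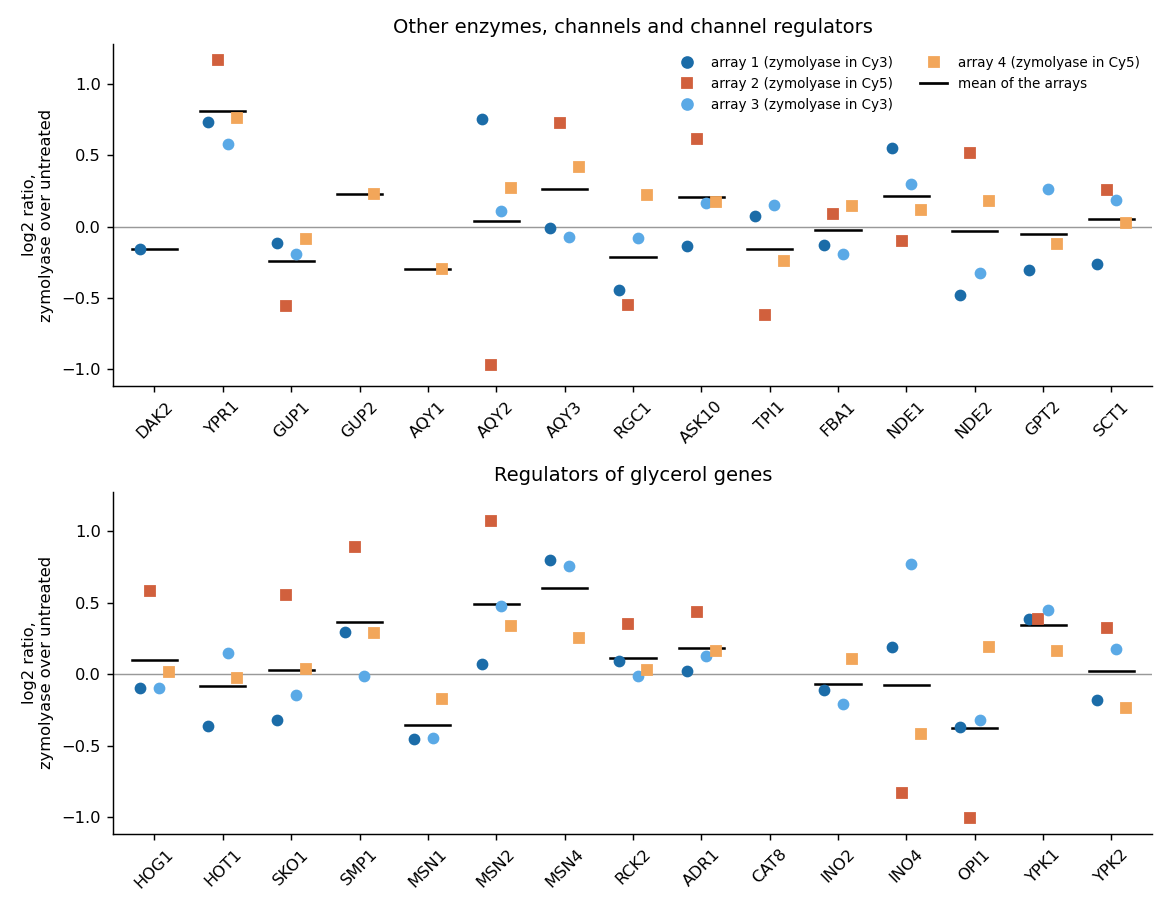
Log2 ratio of zymolyase over untreated (vertical axis) on each array for other enzymes, channels and channel regulators (upper panel) and for regulators of glycerol genes (lower panel); points are arrays and black lines the mean of the arrays with a value. YPR1 lies between 0.58 and 1.17, the other genes with 4 values have means between -0.37 and 0.49, and CAT8 has no value.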

How the data were processed

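Total RNA of zymolyase-treated and untreated parts of rlm1 mutant cultures was labelled with Cy5 or Cy3 and compared on 4 arrays, per the labels' protocols. The deposited values are 1 log ratio per feature and array, taken as log2; for the scanner, background correction, normalization, log base, numerator and any turning for the dye exchange the method is not given in the sources used here. Intensities were not analysed here, so the number of arrays limits the precision. Arrays 2 and 4 were multiplied by -1, because the deposited values of the genes with the largest ratios changed sign with the dyes.

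The 6209 features less 2 controls were named through the R64 reference gene table (5711 matched). Genes with a value on all 4 arrays entered a limma fit (version 3.58.1, R 4.3.3): 2 arrays were averaged per culture, and lmFit and eBayes tested the 2 culture means against 0. The labels do not tie arrays to cultures, so both pairings of opposite dyes were fitted. Nothing says the cultures were grown on separate days, so p-values reflect at most the spread between 2 cultures. That spread was pooled over all genes into the same standard error, and a gene's own spread did not enter its p-value. The glycerol genes and the lists were chosen with earlier results of these data known. Named were all 10 glycerol genes, called list genes and the 3 with the largest means per list, the 3 genes nearest GPD1 and GPP2, and features numbered beside a glycerol gene. Alternatives were array centring, scaling, a dye term, each pairing, no turning, each array left out, genes with missing values and a robust variance.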

Additional observations from a re-analysis of the deposited data

Results flagged for a closer look

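The difference GPP1 minus GPP2 had 1 array apart from the others: it was -0.86 in log2 ratio on array 4, against -0.68 to -0.65 on arrays 1 to 3. The direction was the same on all 4 arrays. HOG1 was 0.59 in log2 ratio on array 2, against -0.09 to 0.02 on the others. Both were marked by the gap of 1 array to the nearest of the rest, relative to the range over the 4 arrays. The check covered 36 genes and differences. Chance marks about 1 in 20 where the 4 values are independent and of equal spread. These arrays share 2 cultures and array 2 spread most, so that rate need not hold here.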

How the results depend on the processing

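With the arrays turned, the calls of GPD1, GPP1, GPP2 and DAK1 and the direction of the paralogue differences held under centring, scaling, a dye term, each pairing, missing values admitted and a robust variance. Taking the deposited ratios as already turned, no glycerol gene passed. The means were then 0.053 for GPD1, 0.044 for GPD2, -0.033 for GPP1, -0.080 for GPP2, -0.41 for GUT1, -0.11 for GUT2, -0.026 for DAK1, -0.37 for GCY1 and -0.18 for FPS1, as mean log2 ratios. GPD1 minus GPD2 was 0.0085, GPP1 minus GPP2 0.047 and synthesis minus breakdown 0.23. Over all genes that reading gave 316 calls, 215 higher and 101 lower, against 149 (111 higher, 38 lower) with turning. It called 0 of the other pathway enzymes and channels, 1 regulator (INO4) and 2 of the stress genes. The cause was not tested.

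The 149 calls became 97 with centring (14 lower), 98 with scaling (12 lower) and 77 with a dye term (68 higher, 9 lower). Leaving out 1 array gave 8 to 23 calls, of which 8 to 23 were higher and 0 to 3 lower; 1 to 2 glycerol genes, 0 other enzymes and channels, and 4 to 8 stress genes then passed. GPD1 minus GPD2 ran from 1.85 to 2.39 and synthesis minus breakdown from 0.39 to 0.61. With all 4 arrays turned and GPD1 left out of the synthesis genes, a choice made after seeing the data, the latter was 0.22. GPP1 minus GPP2 ran from -0.73 to -0.66, and its 95% interval included 0 without array 1 (-0.73) and without array 3 (-0.72). Its standard error was 0.43 and 0.44 in these fits, against 0.23 with all 4 arrays. Why the standard error was larger was not tested. GUT1 ran from -0.018 (without array 2) to 0.30, and FPS1 from -0.048 (without array 2) to 0.16, so both changed sign. Regulators had 1 call (MSN2) with arrays paired 1 with 2 and 3 with 4, and 1 (MSN4) with missing values admitted. No intensities were available here to set signal against background.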
